A study of Canis lupus familiaris with 6 samples.

Results

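The Wnt genes measured here were the ligands, receptors, inhibitors and signal transducers of the Wnt pathway on a canine expression array. They were chosen by gene symbol alone, as WNT, FZD, SFRP, DKK, LRP5 and LRP6, AXIN, APC, CTNNB1, TCF7, LEF1, DVL, GSK3, LGR, RSPO, PORCN, KREMEN, ROR, RYK, NKD or TLE genes or WIF1. The symbols matched 57 of 35581 gene names and 82 of 43603 features that were not array controls. No measured value entered that rule, although earlier results of these data were known when it was set. Of the core genes looked for by symbol, AXIN2, LRP5 and TCF7L2 had no probe under those names and were not analysed here.

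RNA of 3 canine mammary tumor cell lines was compared between co-culture with MDSCs and monoculture. P114 is derived from an anaplastic cancer, CMT-U27 from a simple carcinoma and CMT-U309 from a spindle cell tumor. MDSCs (myeloid-derived suppressor cells) are immature myeloid cells. They were sorted from the blood of healthy dogs by Gr1, CD11b and CD33, and were held in culture inserts above the tumor cells for at least 72 h per the labels, while the methods give a shorter time. The labels name no other treatment or genetic change in either condition, and each group stands on 1 established line. Each line gave 1 co-culture RNA and 1 monoculture RNA, which were hybridized together on 2 Agilent arrays with the dyes exchanged (co-culture RNA was labelled with Cy5 on array 1 and with Cy3 on array 2). No separate cultures are named within a line, so the p-values below measure only the spread between these RNA samples.

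Wnt proteins are secreted, lipid-modified ligands that bind Frizzled receptors together with a co-receptor. In the beta-catenin branch, binding stops a complex of AXIN, APC and GSK3 from marking beta-catenin for degradation, and beta-catenin then acts with TCF and LEF factors on target genes. In the planar polarity and calcium branches, ligands such as WNT5A act through Frizzled, ROR and RYK receptors without beta-catenin. In the mammary gland the pathway is known for its part in branching, in stem and progenitor cells and in tumor growth.

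The probes of the 4 Wnt ligands whose levels set P114 apart are shown because they lie in the same stretch of these related genes. That stretch is not particular to them, as the probes of WNT9B and WNT10B also reach into it and were not compared here. Their positions, as the array files give them, were in the dog assembly canFam2 at chr9:13159700-13159759 on the minus strand for WNT3, chr27:46708396-46708455 on the plus strand for WNT5B, chr20:7078533-7078592 on the minus strand for WNT7A and chr10:23262904-23262963 on the plus strand for WNT7B. Capitals mark the bases shared by all 4 probes when they are laid side by side without gaps.
WNT3: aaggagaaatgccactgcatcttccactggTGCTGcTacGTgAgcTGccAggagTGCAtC
WNT5B: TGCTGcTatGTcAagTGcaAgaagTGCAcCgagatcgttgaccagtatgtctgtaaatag
WNT7A: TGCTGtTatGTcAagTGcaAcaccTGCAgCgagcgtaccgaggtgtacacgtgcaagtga
WNT7B: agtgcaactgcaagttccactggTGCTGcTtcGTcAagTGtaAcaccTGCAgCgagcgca
All 4 covered 30 positions in common, and 17 of these held the same base in every probe. The probes of WNT7A and WNT7B matched at 32 of 37 shared positions, and those of WNT3 and WNT7A at 19 of 30. The WNT5B and WNT7A probes were each 19 codons followed by a stop codon, so they reach the end of the coding sequence. The files give no exon or UTR annotation for the probes. Hybridization of one family member's RNA to another's probe was not tested.

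Expression of the Wnt genes was detected unevenly. A signal well above background, as called by the scanner software for each channel, was found in all 12 channels for a probe of 24 genes, in some channels for 24 genes and in none for 9 genes. The 9 genes without such a signal were the ligands WNT3A, WNT6, WNT8B, WNT11 and WNT16, the R-spondin RSPO1, and the inhibitors NKD1, DKK2 and DKK4. No spot of the set was saturated. By channel, 58.5% to 84.1% of the 82 probes were well above background, and 53.0% to 81.0% of all spots. The probes of RSPO1, WNT3A and WNT8B stayed at an intensity of 10 or less in all samples and were not tested, which left 79 probes of 54 genes.

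Markers of cell type separated the lines, and their part in the differences of Wnt genes was not tested. All 7 epithelial markers tested were higher in CMT-U27 than in P114 and than in CMT-U309, with a summed signal of 109900 to 125300 in CMT-U27, 1356 to 1929 in P114 and 271 to 330 in CMT-U309. Of 8 mesenchymal markers, 6 were lower in CMT-U27 than in each of the other lines, and the summed signal was 7495 to 7755 in CMT-U27, 264800 to 305600 in P114 and 324500 to 365000 in CMT-U309. Leukocyte and myeloid markers, 11 in all, were read for RNA of the co-cultured cells. Of these, ITGAM, which encodes CD11b, and the myeloid enzyme LYZ were well above background in 0 of 12 channels. Their summed signal in co-culture and in monoculture was 1663 and 1667 in P114, 13630 and 7929 in CMT-U27, and 1581 and 1566 in CMT-U309. The granulocyte gene S100A8 was the brightest marker in CMT-U27, at a line level of 13.06 with ratios of 0.89 and 0.82 on its arrays. CD68 at 10.20 and S100A9 at 9.03 came next, so S100A8 made up most of the sum in that line. S100A8 was well above background in 4 of 4 CMT-U27 channels, and so in monoculture too. PTPRC, ITGAM, CSF1R, LYZ and FCER1G were in 0 of 4. None of the 11 passed the thresholds of the co-culture comparison, and the part of the higher sum in CMT-U27 co-culture in the ratios of Wnt genes was not tested. In bulk RNA, fewer cells of a type and less RNA per cell cannot be told apart.

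The level of Wnt genes differed widely between the lines. Signals of the 6 RNA samples (line by condition) were compared on the log2 scale, with culture condition as a covariate. At an adjusted p below 0.05 in limma's moderated F test, 36 of 54 genes differed by their brightest probe, and 55 of 79 probes (69.6%), against 55.1% of all 40873 probes tested. Pairwise calls needed an adjusted p below 0.05 and more than 2-fold. By that rule P114 was higher than CMT-U27 for 24 of 79 probes, or 30.4% (11.6% of all probes), and lower for 6, or 7.59% (12.6%). P114 was higher than CMT-U309 for 17 probes, or 21.5% (7.69% of all probes), and lower for 13, or 16.5% (6.85%). CMT-U27 was higher than CMT-U309 for 11 probes, or 13.9% (15.7% of all probes), and lower for 22, or 27.8% (13.3%). Scaled to the 75th percentile in place of the median, the last split was 6 higher and 24 lower. The median difference over all probes between CMT-U27 and CMT-U309 was 0.04 with the median scaling and −0.17 with the 75th percentile, and that between P114 and CMT-U27 was 0.15 and 0.30. Each line was hybridized on a slide of its own, so slide and line cannot be told apart in these differences.

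**Figure D1:**
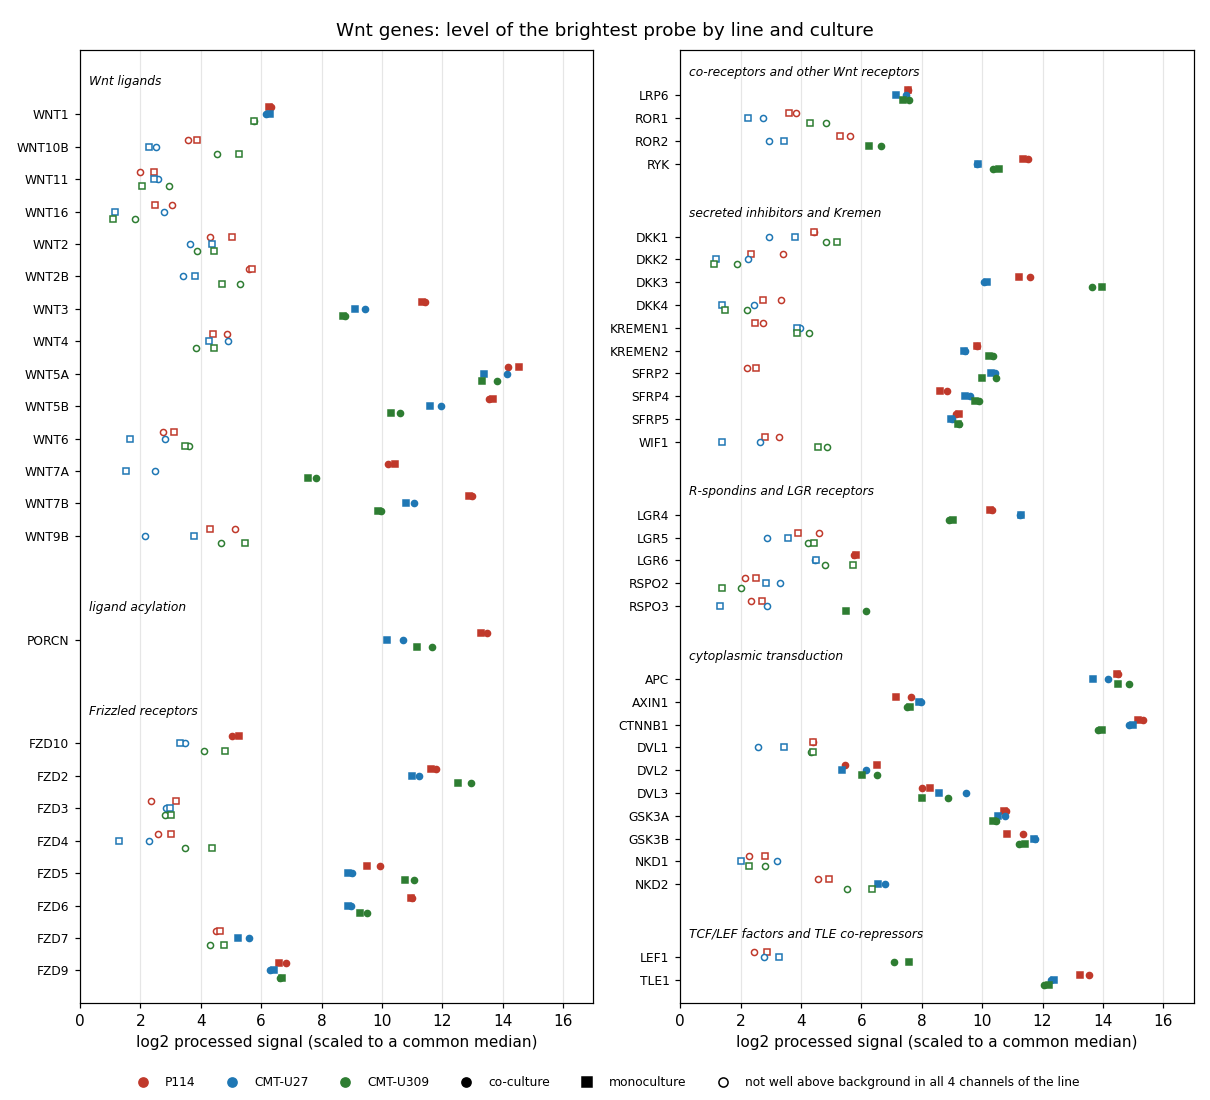
Log2 processed signal (x axis) of the brightest probe of each tested Wnt gene (y axis, grouped by role), with colour for line, circles for co-culture, squares for monoculture and open symbols where the probe was not well above background in all 4 channels of the line. WNT7A in CMT-U27 and SFRP2 in P114 sit far to the left of the other lines.

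Among the ligands, 8 of 14 tested genes differed between lines, against 55.1% of all probes. P114 was higher than CMT-U27 for 7 of them (11.6% of all probes) and lower for 0 (12.6%). It was higher than CMT-U309 for 4 (7.69%) and lower for 1 (6.85%). WNT7A, a ligand of the reproductive tract and limb, showed the widest range. Its log2 signal was 10.19 in co-culture and 10.43 in monoculture of P114, 2.49 and 1.53 in CMT-U27, and 7.82 and 7.54 in CMT-U309. The groups did not overlap, and no CMT-U27 channel was called well above background. Against that line WNT7A was 225-fold higher in P114 (limma adjusted p = 9.78e-09) and 37.9-fold higher in CMT-U309 (adjusted p = 1.26e-07) by floored folds. Floored folds set the dim line or condition at its own signal or the lowest signal called well above background, whichever was higher. They were taken after loess and between-array quantile normalization. They are not minima, because a signal that is not called can lie above that floor. With normexp background correction, loess and quantile normalization P114 minus CMT-U27 was 3.44 and CMT-U27 minus CMT-U309 was −1.48 on the log2 scale. Both were smaller than in the main fit, though still past the thresholds. P114 exceeded CMT-U309 by 2.63 (SE 0.273), or 6.18-fold (adjusted p = 7.03e-05).

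The other bright ligands shared an order of P114 over CMT-U27 over CMT-U309. WNT7B, the close relative of WNT7A, read 12.98 and 12.89 (co-culture, then monoculture) in P114, 11.05 and 10.81 in CMT-U27, and 9.97 and 9.86 in CMT-U309. P114 stood above the others by 4.01-fold and 8.08-fold, with adjusted p values of 1.29e-06 and 1.39e-07. The 2.02-fold step from CMT-U309 to CMT-U27 fell below 2-fold under 5 of 15 alternative settings. WNT5B, a ligand of the non-canonical branches, read 13.55 and 13.68 in P114, 11.94 and 11.59 in CMT-U27, and 10.60 and 10.30 in CMT-U309. Its level in P114 was 3.60-fold that in CMT-U27 and 8.95-fold that in CMT-U309 (adjusted p = 7.21e-06 and 3.02e-07). WNT3, which acts through beta-catenin, read 11.41 and 11.33 in P114, 9.44 and 9.11 in CMT-U27, and 8.79 and 8.70 in CMT-U309. For WNT3 the differences were 4.27-fold and 6.17-fold (adjusted p = 1.74e-06 and 6.98e-07), while CMT-U27 and CMT-U309 differed by 1.45-fold.

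WNT5A, the main ligand of the planar polarity and calcium branches, was bright in every line. Its signal was 14.17 and 14.53 in P114, 14.14 and 13.37 in CMT-U27, and 13.81 and 13.31 in CMT-U309. CMT-U27 and CMT-U309 overlapped and no pair passed 2-fold, although the F test reached an adjusted p of 0.0324. Of the dim ligands, WNT2B and WNT9B were lower in CMT-U27 than in both other lines, by 2.60-fold to 4.26-fold. WNT10B was not well above background in any CMT-U27 channel. By floored folds it was 2.06-fold higher in P114 and 4.22-fold higher in CMT-U309 (adjusted p = 0.0163 and 0.000367). WNT1, WNT2 and WNT4 were detected in each line and did not pass the F test (adjusted p = 0.0966, 0.169 and 0.432).

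PORCN, the enzyme that attaches the lipid without which Wnt ligands are not secreted, was highest in P114. Its brighter probe read 13.49 and 13.30 in P114, 10.69 and 10.17 in CMT-U27, and 11.64 and 11.16 in CMT-U309. P114 stood apart by 2.96 (SE 0.140) from CMT-U27, or 7.80-fold, and by 1.99 from CMT-U309, or 3.98-fold (adjusted p = 1.19e-07 and 4.47e-06). The other PORCN probe, which shares 56 of its bases with the first, gave 10.3-fold and 8.89-fold. The probes differed in the comparison of CMT-U27 with CMT-U309, at −0.97 (adjusted p = 0.00028) for the brighter and −0.21 (adjusted p = 0.263) for the other.

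Of the 8 Frizzled genes, which encode the ligands' receptors, 6 differed between lines (55.1% of all probes). Of the 8, 4 were lower in CMT-U27 than in CMT-U309 (13.3% of all probes). FZD6 followed the order of the ligands in being highest in P114, with 10.99 and 10.96 against 8.98 and 8.87 in CMT-U27 and 9.50 and 9.26 in CMT-U309. Those differences were 4.14-fold and 3.02-fold (adjusted p = 1.79e-06 and 2.26e-05), and the second FZD6 probe gave 4.11-fold and 3.36-fold. FZD5 was highest in CMT-U309, at 11.06 and 10.75, with 9.93 and 9.52 in P114 and a mean of 8.95 over both conditions of CMT-U27. FZD5 in CMT-U309 was 2.27-fold above P114 and 3.90-fold above CMT-U27 (adjusted p = 0.000203 and 2.51e-06). FZD2 had the same order, with CMT-U309 2.05-fold above P114 and 3.06-fold above CMT-U27. The first of these fell below 2-fold when P114 array 2 or CMT-U309 array 1 was left out (P114 minus CMT-U309 log2 −0.96 and −0.90). FZD4 was well above background in 3 of 4 channels of CMT-U309 and in no channel of the other lines. FZD9 was detected in all channels and did not pass the test (adjusted p = 0.297).

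Among the co-receptors and other Wnt receptors, 3 of 4 genes were called higher in P114 than in CMT-U27 (11.6% of all probes). ROR2, a receptor tyrosine kinase for WNT5A, read 5.62 and 5.29 in P114, 2.96 and 3.45 in CMT-U27, and 6.66 and 6.25 in CMT-U309. It was 4.77-fold higher in P114 and 9.52-fold higher in CMT-U309 than in CMT-U27 (adjusted p = 0.000208 and 1.36e-05), where 1 of 4 channels was called above background. The second ROR2 probe gave 1.81-fold, which was not called, and 2.71-fold. With normexp background correction, loess and quantile normalization the differences of the first probe kept their direction but no longer passed 2-fold. On the log2 scale P114 minus CMT-U27 was 0.29 and CMT-U27 minus CMT-U309 was −0.48. The related ROR1 was well above background in 3 of 4 CMT-U309 channels alone, so its call between P114 and CMT-U27 compared signals below background. RYK, an atypical kinase that also binds Wnt proteins, read 11.53 and 11.36 in P114, 9.82 and 9.88 in CMT-U27, and 10.36 and 10.56 in CMT-U309. RYK in P114 was 3.02-fold above CMT-U27 (adjusted p = 1.34e-05). LRP6, the co-receptor of the beta-catenin branch, lay between 7.14 and 7.58 in all 6 samples (adjusted p = 0.517).

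Of the 10 genes of secreted inhibitors and their Kremen receptors, 5 were lower in P114 than in CMT-U309 (6.85% of all probes) and 0 higher (7.69%). The 5 were SFRP2, SFRP4, DKK3, WIF1 and KREMEN1. SFRP2, a secreted decoy with a Frizzled-like domain, had the smallest adjusted p of the set (1.8e-09). Its signal was 2.22 and 2.51 in P114, 10.43 and 10.30 in CMT-U27, and 10.45 and 9.99 in CMT-U309. No P114 channel was called well above background, while the other lines overlapped. By floored folds SFRP2 was 156.5-fold lower in P114 than in CMT-U27 (adjusted p = 2.39e-09) and 173-fold lower than in CMT-U309 (adjusted p = 5.82e-09). With normexp background correction the log2 differences were −3.14 and −3.09, smaller but still past the thresholds. CMT-U27 and CMT-U309 differed by 0.14 (SE 0.206, adjusted p = 0.617).

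DKK3, a Dickkopf family member that is often silenced in tumors, was highest in CMT-U309. The brightest of its 3 probes read 13.63 and 13.97 there, 11.59 and 11.24 in P114, and 10.06 and 10.16 in CMT-U27. CMT-U309 was 5.22-fold above P114 and 12.9-fold above CMT-U27 (adjusted p = 4.88e-06 and 9.16e-08), and the other 2 probes kept the order, with 5.21-fold and 8.31-fold over P114. WIF1, which binds Wnt proteins outside the cell, was well above background in 3 of 4 CMT-U309 channels and in none of the others. DKK1, an antagonist of the LRP co-receptors, was 3.09-fold lower in CMT-U27 than in CMT-U309 (adjusted p = 0.00259) but was called above background in 1, 2 and 3 of 4 channels in P114, CMT-U27 and CMT-U309. SFRP5 did not pass the test (adjusted p = 0.355).

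The probes of SFRP4, another decoy, disagreed, and were singled out after their values were seen. Probe 1, at chr18:15011382-15011441 on the plus strand of canFam2, is shown because it was bright where the other was not detected.
SFRP4 probe 1: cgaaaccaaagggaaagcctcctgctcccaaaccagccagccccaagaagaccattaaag
This probe read 8.84 and 8.62 in P114, 9.59 and 9.45 in CMT-U27, and 9.89 and 9.76 in CMT-U309, and was well above background in all channels. The second read 7.88 and 7.73, 3.90 and 3.07, and 7.76 and 7.94 in the same order, and was not well above background in any CMT-U27 channel. By floored folds of probe 2, SFRP4 was 16.8-fold higher in P114 and 18.0-fold higher in CMT-U309 than in CMT-U27 (adjusted p = 7.13e-07 and 5.78e-07). With normexp background correction the first of these was 0.90 and no longer passed 2-fold. By probe 1, CMT-U27 was 1.73-fold above P114 (adjusted p = 0.00139). P114 was also called lower than CMT-U309 by probe 1 and not by probe 2. Which transcripts each probe detects was not tested.

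**Figure D2:**
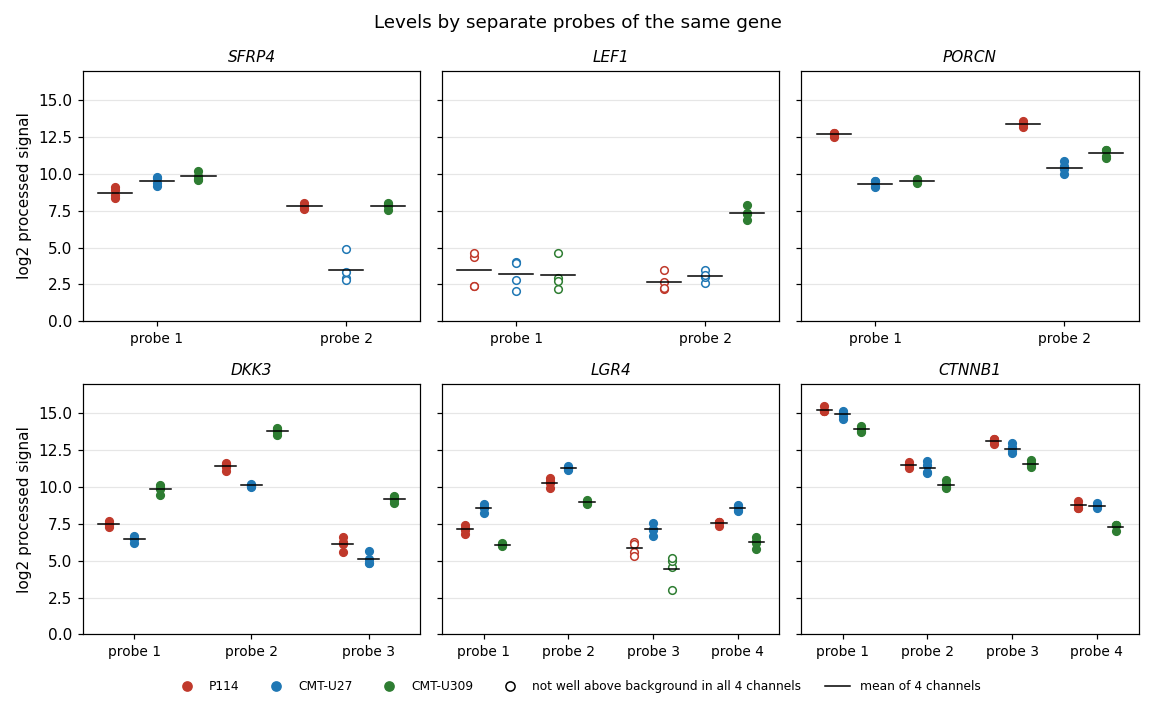
Log2 processed signal (y axis) of each probe (x axis) of 6 genes with several probes, with a point for each of the 4 channels of a line, a bar for their mean and colour for line. The SFRP4 probes part in CMT-U27 and the LEF1 probes in CMT-U309, while the DKK3 probes share 1 order of the lines and the LGR4 probes another.

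R-spondins strengthen Wnt signals through LGR receptors. RSPO3 was measured above background only in CMT-U309, in 4 of 4 channels, at 6.16 in co-culture and 5.49 in monoculture. Its signal was 2.35 and 2.70 in P114 and 2.89 and 1.32 in CMT-U27. By floored folds CMT-U309 was 6.95-fold above P114 and 8.44-fold above CMT-U27 (adjusted p = 0.00057 and 0.000115). With normexp background correction the differences of RSPO3 kept their direction but no longer passed 2-fold. On the log2 scale P114 minus CMT-U309 was −0.38 and CMT-U27 minus CMT-U309 was −0.40. LGR4, a receptor for R-spondins, had the opposite order of these 2 lines. The brightest of its 4 probes read 10.32 and 10.26 in P114, 11.26 and 11.28 in CMT-U27, and 8.91 and 9.04 in CMT-U309. LGR4 in CMT-U27 was 4.92-fold above CMT-U309 (adjusted p = 5.65e-07), and all 4 probes placed CMT-U27 first and CMT-U309 last. LGR5 and LGR6, the related receptors, were detected in part of the channels, and LGR6 was 2.49-fold higher in P114 than in CMT-U27 (adjusted p = 0.00545).

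Of the 10 genes of cytoplasmic transduction, 6 differed between lines (55.1% of all probes). Each direction of each pair of lines had 1 gene called by its brightest probe (6.85% to 15.7% of all probes). CTNNB1, which encodes beta-catenin, read 15.33 and 15.16 in P114, 14.87 and 14.99 in CMT-U27, and 13.85 and 13.99 in CMT-U309. CMT-U309 lay below P114 by 2.51-fold and below CMT-U27 by 2.02-fold (adjusted p = 0.000108 and 0.000286), and the other 3 CTNNB1 probes were also called lower in CMT-U309 against both lines. The difference from CMT-U27 fell below 2-fold under 5 of 15 alternative settings and that from P114 under 2. NKD2, which restrains Dishevelled, was 3.81-fold lower in P114 than in CMT-U27 and 2.28-fold lower than in CMT-U309 (adjusted p = 0.000362 and 0.0101).

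The destruction complex differed by less than 2-fold. APC, its scaffold and a tumor suppressor, read 14.48 and 14.46 in P114, 14.16 and 13.66 in CMT-U27, and 14.86 and 14.51 in CMT-U309 by the brightest of 5 probes (F adjusted p = 0.00463). AXIN1, the limiting scaffold, read 7.64 and 7.13, 7.99 and 7.92, and 7.53 and 7.61 in P114, CMT-U27 and CMT-U309, and did not pass the test (adjusted p = 0.0704). GSK3B, the kinase that marks beta-catenin, read 11.36 and 10.83 in P114, 11.75 and 11.72 in CMT-U27, and 11.22 and 11.42 in CMT-U309 (F adjusted p = 0.0288). No pair of lines was called for any of these genes.

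In the nucleus, LEF1, a partner of beta-catenin on DNA, was measured in CMT-U309. Its brighter probe read 7.10 in co-culture and 7.59 in monoculture there, 2.43 and 2.87 in P114, and 2.79 and 3.28 in CMT-U27. It was called well above background in 4, 0 and 1 of 4 channels in these lines. By the floored fold CMT-U309 was 20.6-fold above P114 (adjusted p = 2.04e-06). The fitted difference between CMT-U27 and CMT-U309 was −4.31 on the log2 scale (SE 0.297, adjusted p = 1.59e-06), with a single CMT-U27 channel above background. That difference was −0.94 with normexp background correction, under 2-fold. The other LEF1 probe stayed between 2.81 and 3.52 and did not pass the test (adjusted p = 0.724). TLE1, a co-repressor that binds TCF and LEF factors, was 2.05-fold higher in P114 than in CMT-U27 and 2.37-fold higher than in CMT-U309 by its brightest probe (adjusted p = 0.000357 and 0.00019).

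**Figure D3:**
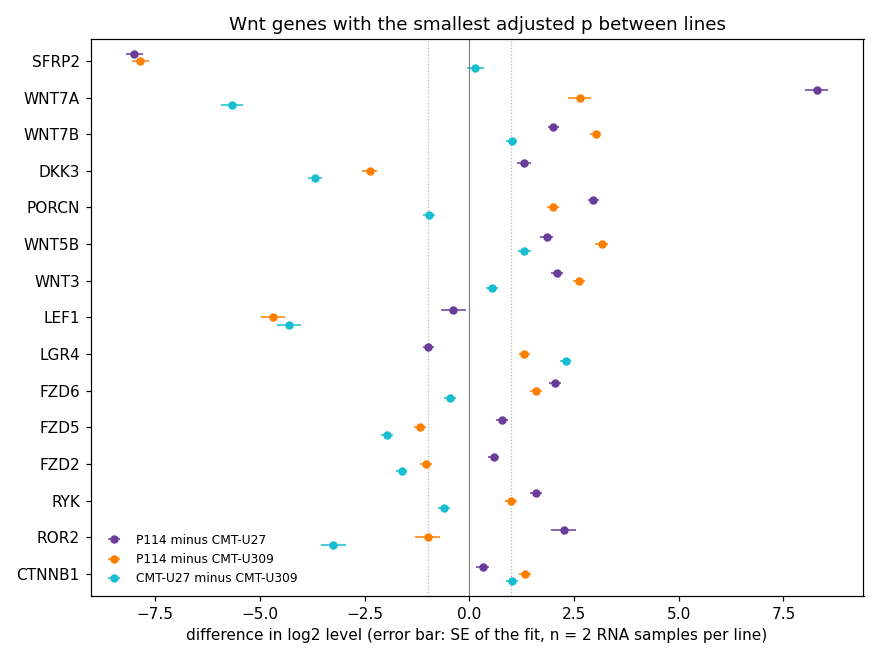
Log2 difference between pairs of lines (x axis, error bars are ±1 SE of the fit) for the 15 Wnt genes with the smallest adjusted p (y axis), with dotted lines at 2-fold. SFRP2 and WNT7A lie farthest from 0, and PORCN, WNT3, WNT5B and WNT7B lie to the P114 side in both comparisons that involve P114.

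No Wnt gene passed the thresholds of the comparison between co-culture and monoculture. Log2 ratios of co-culture over monoculture were averaged over the dye-swap arrays of a line and tested over the 3 lines. At the methods' thresholds, an unadjusted p below 0.05 and more than 2-fold, 0 of 79 probes passed, against 1.22% of all 40873 probes. After Benjamini-Hochberg adjustment over all probes no probe of the array passed, and the smallest adjusted p was 0.230. At an unadjusted p below 0.05 in limma, 10 Wnt probes were higher, or 12.7% (5.81% of all probes), and 1 was lower, or 1.27% (4.12%). That count was 3 higher and 1 lower with normexp and loess, 22 and 6 without P114, 0 and 1 without CMT-U27 and 0 and 0 without CMT-U309. Without P114 the calls over all probes rose too, to 15.6% at an adjusted p below 0.05. The matching shares of all probes are not given, so these counts are not read as particular to Wnt genes. The median ratio over the 54 genes, by the brightest probe of each, was 0.13, with 34 of 54 above 0. Over all probes, without a choice of the brightest, the median was 0.01, and the share above 0 is not given. The median of the 54 genes fell to 0.0134 with normexp and loess and to 0.0453 without array 1 of CMT-U27. The same median was 0.03 for the P114 ratios, 0.15 for those of CMT-U27 and 0.12 for CMT-U309.

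Among the 11 probes with an unadjusted p below 0.05, 7 were well above background in all 12 channels. PORCN had the smallest p of the Wnt probes, although the adjusted p of all 11 was 0.498. Its brighter probe gave log2 ratios of 0.18 and 0.21 in P114, 0.51 and 0.53 in CMT-U27, and 0.56 and 0.40 in CMT-U309. All 6 arrays were above 0, and the mean was 0.40 (SE 0.115), or 1.32-fold (limma adjusted p = 0.498). The PORCN probe that overlaps it gave 0.15 (adjusted p = 0.621), with 4 of 6 arrays above 0.

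Beta-catenin was not uniform over its probes. CTNNB1 probe 3 gave 0.09 and 0.36 in P114, 0.27 and 0.69 in CMT-U27, and 0.18 and 0.46 in CMT-U309, with a mean of 0.34. Probe 2 also gave 0.34, while the brightest probe gave −0.03 (adjusted p = 0.949) and the last −0.14 (adjusted p = 0.724). Of the receptors, FZD2 had a mean of 0.27 and FZD5 of 0.28. APC gave 0.30 by its brightest probe, while the other 4 APC probes ranged from −0.19 to 0.34. DVL3, a Dishevelled protein that relays the signal from Frizzled, gave −0.42 and −0.13 in P114, 0.93 and 0.85 in CMT-U27, and 0.87 and 0.84 in CMT-U309 (mean 0.49, SE 0.212).

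The other probes with a p below 0.05 were dim. FZD3 probe 1, WNT16 and DKK2 each had a mean of 0.97 and were well above background in 0 of 12 channels, so these ratios compare signals below detection. WNT2 was the lower one, with a mean of −0.66 (SE 0.247). It was well above background in 6 of 6 monoculture channels and 2 of 6 co-culture channels, and 5 of 6 arrays were below 0. Its ratios differed by dye, with −0.19, −0.31 and 0.47 on array 1 of P114, CMT-U27 and CMT-U309 and −1.23, −1.14 and −1.57 on array 2. The core genes AXIN1, GSK3B, LRP6 and LEF1 gave 0.16, 0.12, 0.18 and −0.48 by their brightest probes (adjusted p = 0.694, 0.751, 0.654 and 0.514).

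**Figure D4:**
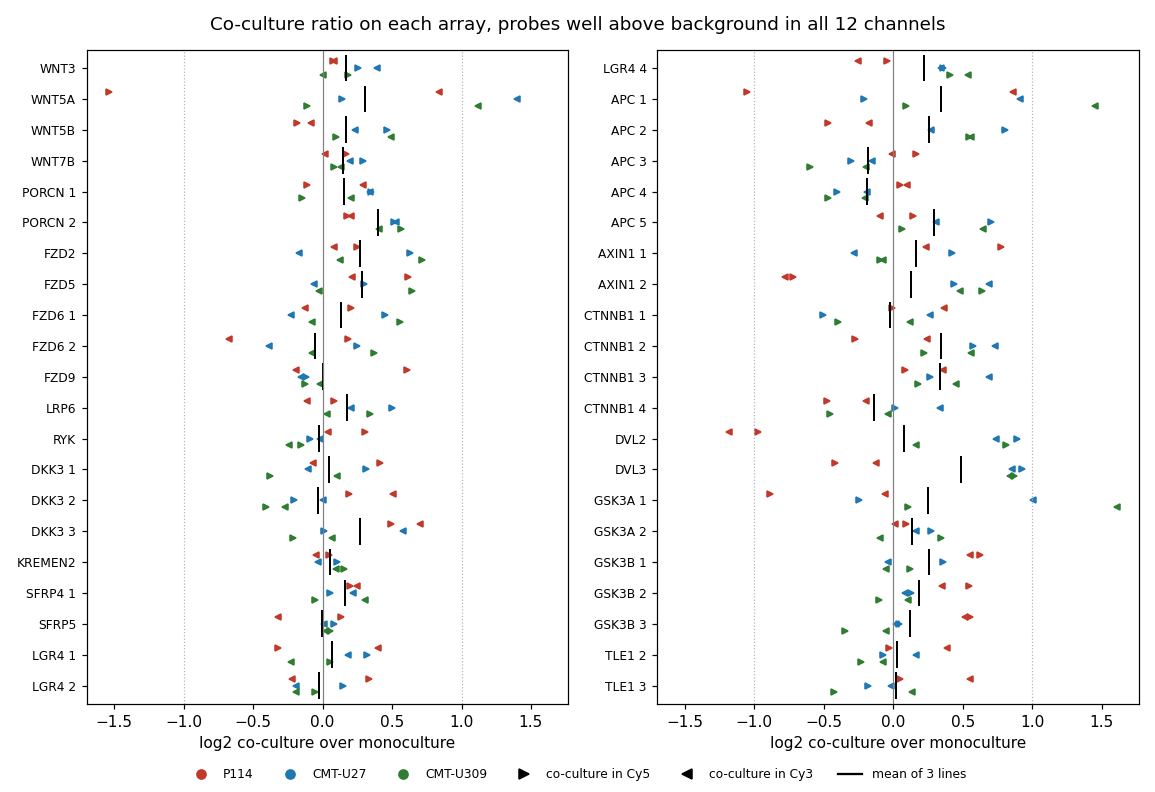
Log2 ratio of co-culture over monoculture (x axis) on each of the 6 arrays for the Wnt probes well above background in all 12 channels (y axis), with colour for line, triangles pointing right for co-culture RNA in Cy5 and left for Cy3, and a bar for the mean of the 3 lines. PORCN probe 2 is above 0 on all 6 arrays, and DVL2 and DVL3 lie below 0 in P114 and above 0 in the other lines.

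The co-culture comparison gave other counts when P114 was left out. Over the probes well above background in all channels of a line, the dye-swap arrays had the same sign for 43.9% of probes for P114, for 64.5% when CMT-U27 was read and for 56.6% with CMT-U309. For Wnt probes these shares were 29 of 49 (59.2%), 34 of 49 (69.4%) and 31 of 48 (64.6%). Left without P114, the fit over CMT-U27 and CMT-U309 called 15 of 79 Wnt probes (19.0%) at an adjusted p below 0.05. The share of all probes was 15.6%. Of the 15, 13 were higher and 2 lower in co-culture. The split by direction over all probes is not given, so this split is not read as particular to Wnt genes. At the methods' thresholds 4 Wnt probes passed, or 5.06% (6.55% of all probes), namely RSPO3, WNT9B and the undetected FZD3 probe 1 and WNT16. With 2 lines, the spread between lines is estimated with the help of all other probes.

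Named among the 15, DVL3 had a mean of 0.87 (SE 0.119, adjusted p = 0.00101) and WNT5A of 0.64 (SE 0.0973, adjusted p = 0.0019). The arrays of WNT5A differed by dye, with 0.14 on array 1 and 1.40 on array 2 of CMT-U27 and −0.11 and 1.12 on those of CMT-U309. PORCN probe 2 gave 0.50 (adjusted p = 0.00476), and CTNNB1 probes 2 and 3 gave 0.52 and 0.40 (adjusted p = 0.00662 and 0.0152). The overlapping PORCN probe 1 gave 0.19 (adjusted p = 0.238), and CTNNB1 probes 1 and 4 gave −0.13 and −0.04 (adjusted p = 0.352 and 0.88). WNT9B, a ligand known from kidney and palate development, gave −1.20 (adjusted p = 0.0199), and LGR4 probe 3 gave −0.85 (adjusted p = 0.0304) while the other 3 LGR4 probes ranged from −0.07 to 0.41. RSPO3 gave 1.12 (adjusted p = 0.0437) and was well above background in 4 of 8 channels. Whether P114 differs from the other lines in these ratios was not tested by this fit.

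Within single lines, a probe was counted when both arrays showed more than 2-fold in 1 direction and the higher condition was well above background on both. WNT9B in CMT-U27 was the only Wnt probe counted, which was 1.22% of 82 probes against 0.968% of all probes in that line. P114 and CMT-U309 had 0 each, against 0.255% and 0.29% of all probes. WNT9B gave −1.42 and −1.77 in CMT-U27, 1.52 and 0.13 in P114, and 0.05 and −1.64 in CMT-U309. In CMT-U27 it was called above background on both arrays in monoculture and on neither in co-culture. By the floored fold it was 2.43-fold lower in co-culture, without a replicate of that RNA pair. With normexp background correction it was not counted.

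Genes that act beside the chosen set were read from lists of known pathway members. Over all probes, 55.1% differed between lines, 1.22% passed the co-culture thresholds, and 5.81% were higher and 4.12% lower in co-culture at an unadjusted p below 0.05. Of 28 other genes of the beta-catenin branch, 18 differed between lines and 0 passed the co-culture thresholds, with 1 higher and 1 lower at an unadjusted p below 0.05 and a median ratio of −0.01. NOTUM, an enzyme that strips the lipid from Wnt proteins, was higher in P114 than in CMT-U27 by 2.12 on the log2 scale (adjusted p = 2.43e-05). WLS, which carries Wnt proteins to the cell surface, was higher in P114 than in CMT-U27 by 1.18 (adjusted p = 5.65e-05). Its difference between P114 and CMT-U309 was 0.26 (adjusted p = 0.174).

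Of 20 genes of the planar polarity and calcium branches, 13 differed between lines, against 55.1% of all probes. At an unadjusted p below 0.05, 3 were higher in co-culture (5.81% of all probes) and 1 lower (4.12%). RAC1, which acts in the planar branch, gave 0.74 (SE 0.159). INVS and MAPK9, which encode inversin and a JNK kinase, gave 0.42 and 0.48, and INTU, which acts in cilia, gave −0.62. The limma adjusted p of each was 0.498. INTU was above 0 on array 1 of P114, CMT-U27 and CMT-U309, at 0.64, 0.39 and 0.24. On array 2 it was below 0 in each line, at −1.56, −1.85 and −1.59, so its sign followed the dye. INTU was also dim. On the 6 arrays, its co-culture signal stood well above background 2 times and its monoculture signal 5 times.

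Of 25 genes described as targets of TCF factors, 19 differed between lines (55.1% of all probes) and 0 passed the co-culture thresholds, with a median ratio of 0.04. At an unadjusted p below 0.05, 6 were higher (5.81% of all probes) and 0 lower (4.12%). They were the cell cycle genes CCND1 at 0.44 and MYC at 0.47, the angiogenic factor VEGFA at 0.37, the transcription factors RUNX2 at 0.37 and SOX9 at 0.35, and the adhesion receptor CD44 at 0.32, each with an adjusted p of 0.498. BMP4 and TCF4 were called well above background in 0 of 4 channels of CMT-U27 and in 4 of 4 of each other line.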

How the data were processed

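RNA of 3 canine mammary tumor cell lines in co-culture and monoculture was measured on 6 two-color Agilent canine arrays. The authors deposited scanner files in which each channel holds a processed signal intensity, background-subtracted, detrended and dye-normalized by linear and lowess steps, with surrogate values for low signals. A deposited table of log10 ratios was the same as the scanner ratio within 4.997e-06 and served as an alternative. The labels name Feature Extraction 10.7.3.1 and the file headers 10.10.1.1. Groups and dyes were taken from the labels.

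Intensities were log2-transformed, each channel was scaled to the median channel, outlier spots were dropped, probes of maximal intensity 10 or less were filtered, and spots of a probe were averaged. The samples' number of arrays, 2 per line, limits the precision. Co-culture ratios, averaged over the dye-swap arrays, were tested over 3 lines with limma 3.58.1 in R 4.3.3 (intercept, trend in intensity). Levels were tested over 6 RNA samples with condition as a covariate. P-values were adjusted over 40873 probes by Benjamini-Hochberg. Both fits were tested on simulated data with 200 changed probes.

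Array numbers mark the dye orientation of the 2 arrays of one RNA pair. The difference between array 1 and array 2 ratios correlated between lines at 0.356, 0.580 and 0.483 over probes, so the numbers pair the arrays by dye, and the block was run as an alternative. Other alternatives were loess, normexp with an offset of 50, 75th percentile scaling, other filters, no trend, outlier spots kept, and leaving out each array and line. Full values are given, by the brightest probe, for the core genes, the 15 genes with the smallest adjusted p between lines, genes past a threshold in co-culture or within a line, and genes detected in all 4 channels of 1 line and none of another. Other values named were chosen after they were seen. The Wnt genes and all lists were chosen with earlier results of these data known. All 57 symbols were found in the RefSeq gene table.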

Additional observations from a re-analysis of the deposited data

Results flagged for a closer look

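In 14 of 42 Wnt probes well above background in all channels (33.3%, against 25.8% of all such probes) both arrays of 1 line lay above 0 in co-culture and both arrays of another line below 0. These differences between lines were not tested. The value given for each is the difference of the mean log2 co-culture ratio between the 2 lines, for the pair that lies farthest apart.

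DVL2, a Dishevelled protein, was lower in co-culture of P114 (−0.97 and −1.18) and higher in CMT-U27 (0.89 and 0.74), a difference of 1.89, or 3.71-fold. GSK3A probe 1 differed by 1.33 between CMT-U309 and P114. AXIN1 probe 2 differed by 1.31 and DVL3 by 1.16 between CMT-U27 and P114. APC probe 2 differed by 0.87 and LGR4 probe 4 by 0.62 between CMT-U309 and P114. CTNNB1 probe 4 differed by 0.51 and WNT5B by 0.48 between CMT-U27 and P114. In all of these P114 was the line with the lower ratio.

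P114 was the line with the higher ratio in the other 6. GSK3B probe 3 differed by 0.74, DKK3 probe 2 by 0.69, AXIN1 probe 1 by 0.59, APC probe 4 by 0.41 and RYK by 0.37 between P114 and CMT-U309, and TLE1 probe 3 by 0.40 between P114 and CMT-U27. The AXIN1 and APC probes thus pointed in opposite directions within a gene.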

How the results depend on the processing

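Alternatives were run for 38 line differences and 11 co-culture ratios of named probes, and none of these changed its sign. Among other named ratios, AXIN1 probe 1 was −0.01 and GSK3B probe 3 was −0.09 without P114, against 0.16 and 0.12. Of 570 values of line differences, 546 stayed on their side of the thresholds and 24 no longer passed. The 11 ratios gave 206 values, of which 200 kept their sign with an adjusted p of 0.05 or more, and 6 passed an adjusted p of 0.05 without P114. Whether each kept an unadjusted p below 0.05 does not enter these counts. Over the alternatives, 0 to 22 Wnt probes were higher and 0 to 6 lower in co-culture at an unadjusted p below 0.05 in limma or the methods' t-test. The deposited log-ratio table called 1 Wnt probe in co-culture, and leaving out a line or an array gave 0 to 5. The count was 4 without P114 (5.06%, against 6.55% of all probes), 5 without P114 array 1, 2 without CMT-U309 array 1 and 1 without either CMT-U27 array. Shares of all probes for the other settings are not given, so these counts are not read as particular to Wnt genes. With 1 array left out, the dye no longer cancels in that line. Counts at an adjusted p below 0.05 ranged from 0 to 15 when a line was left out, and the 15 was without P114 (19.0%, against 15.6% of all probes). The median ratio was 0.0134 with normexp and loess and 0.0453 to 0.1298 when a line or array was left out. For the other Wnt pathway genes the leave-one-out count was 0 to 2. The array number as a block left 0 Wnt probes called in co-culture, called 37 genes between lines, and changed no other call by more than 1.5 times.

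Genes differing between lines numbered 26 to 39 under all alternatives. With normexp, loess and Aquantile, whose offset shrinks differences between dim probes, P114 was higher than CMT-U27 for 12 probes and lower for 1, higher than CMT-U309 for 11 and lower for 8, and CMT-U27 was higher than CMT-U309 for 4 and lower for 9. CMT-U27 was higher than CMT-U309 for 7 probes with loess and Aquantile, for 6 with the 75th percentile and for 7 to 12 with an array left out (7 without CMT-U27 array 2). It was lower for 11 among probes well above background on all arrays of a line. P114 was lower than CMT-U309 for 8 to 12 with an array left out, the 8 without P114 array 2. Within lines, 0 probes were counted with normexp and 7 at 1.5-fold, a rule met by 1.1% of all P114 probes, 4.05% of those read for CMT-U27 and 2.21% of those for CMT-U309. These were AXIN1 probe 2, DVL2 and GSK3A probe 3, lower in P114, WNT9B, lower, and DVL2 and DVL3, higher, in CMT-U27, and DVL3, higher in CMT-U309. The ratios of FZD3 probe 1, WNT16 and DKK2 rest on signals below background.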
